A study of Mus musculus with 104 samples.

Results

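The genes described here are 32 mouse genes of glycolysis and of the response to low oxygen, taken by symbol from a list and found in each of 8 deposited expression tables, which hold 24940 genes apiece. They are the carriers Slc2a1 and Slc16a3, 17 enzymes and regulators of glycolysis from hexokinase to lactate dehydrogenase, the pyruvate dehydrogenase kinase Pdk1, the oxygen-sensing genes Hif1a, Egln1 and Egln3, and 9 genes known for rising in low oxygen, namely Bnip3, Vegfa, P4ha1, Ndrg1, Ankrd37, Mif, Higd1a, Adm and Ero1l. The genes were listed by function and not by a cutoff on measured values, but with earlier results of these data known.

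Glycolysis splits glucose into pyruvate in the cytosol. Glucose enters through Slc2a1 (GLUT1), hexokinases trap it, phosphofructokinase commits it to breakdown, and lactate dehydrogenase turns pyruvate into lactate, which leaves through the carrier MCT4 encoded by Slc16a3. In low oxygen the transcription factor subunit HIF-1α, encoded by Hif1a, escapes hydroxylation by the prolyl hydroxylases Egln1 and Egln3 and switches on many of these genes, as well as Vegfa, Bnip3 and Adm. HIF-1α is controlled mostly as a protein, so the Hif1a transcript is not a measure of its activity. Macrophages are known to use this programme when they are activated or placed in culture, while resident liver macrophages, the Kupffer cells, live in blood-filled sinusoids.

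The series follows how blood monocytes take on Kupffer cell identity, with 104 mouse RNA-seq libraries in 47 groups of 2 to 4. The time course held Ly6C-high blood monocytes of untreated C57BL/6J mice (4 libraries), repopulating liver macrophages of Clec4f-cre/Rosa26iDTR mice at 12, 24, 48, 72, 168 and 336 h after diphtheria toxin (2, 3, 2, 2, 3 and 3 libraries), and Kupffer cells of that strain 72 h after PBS (3 libraries). In those mice the toxin receptor is driven by Clec4f, a Kupffer cell gene, so the toxin removes the resident cells. A second set held TIM4+ Kupffer cells of Nr1h3 flox/flox mice, TIM4+ and TIM4- Kupffer cells of Nr1h3 flox/flox Clec4f-cre+/- mice, and bone marrow-derived macrophages (BMDMs) labelled Nr1h3 WT and Nr1h3 KO after 7 days of culture (2 libraries each); Nr1h3 encodes the sterol receptor LXRα. Another set held C57BL/6J liver cells sorted as STAB2 low, intermediate and high (2 each), where STAB2 is a scavenger receptor of sinusoidal endothelium. A further set held TIM4+ Kupffer cells of Smad4 flox/flox mice (2), and TIM4+ (3) and TIM4- (2) Kupffer cells of Smad4 flox/flox Clec4f-cre+/- mice; Smad4 carries TGF-β signals to the nucleus.

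The cultured sets were treated with the Notch ligand DLL4, TGF-β, the γ-secretase inhibitor DAPT, and sterols that activate LXR. Smad4 flox/flox BMDMs and their Cre-carrying counterparts, at day 4 of culture, received nothing, TGF-β, DLL4, DLL4 with DAPT, or DLL4 with TGF-β for 24 h (2 each). The Cre is given as Clec4f-cre+/- in the sample labels and as LysM-cre in the study design, so those libraries are called Smad4 knockout as labelled. C57BL/6J BMDMs at day 4 of culture received nothing, DLL4, DMHCA (a sterol LXR ligand), DLL4 with TGF-β, or DLL4 with TGF-β and DMHCA for 24 h, and at day 6 the same without DMHCA alone for 72 h (2 each); the 72 h libraries carry that time in their titles but 24 h in another label, and the titles were followed. C57BL/6J bone marrow monocytes, cultured for 2 days, received nothing, DLL4, desmosterol, DLL4 with TGF-β, or these with desmosterol for 48 h (2 each). The column names mark these cells as BMDM from male animals and the titles as BMmono, and the titles were followed. The last set held repopulating liver macrophages 24 h after diphtheria toxin from mice given the γ-secretase inhibitor LY411575 (3, with 2 controls) or antibodies to DLL1 and DLL4 (4, with 2 controls); the column names mark all 11 of these libraries as fasted. Their labels name C57BL/6J, the study design names Clec4f-Cre/DTR mice, and the column names mark the inhibitor animals as female and the antibody animals as male, so sex and treatment cannot be told apart between those pairs. A treatment label gives the inhibitor or the antibodies for the control libraries too. Controls were taken from the titles and column names, and each treated-against-control value of this set rests on those.

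Levels are TPM, transcript counts scaled to gene length and library size, a unit that allows genes to be compared within a library. Each library held between 7830287 and 27776761 reads on genes, recovered from the deposited values. Differences are on log2(TPM + 1), with the standard error (SE) of limma's moderated fit over all genes and a Benjamini-Hochberg adjusted p over all genes tested in a table. A gene was tested where it reached 4 TPM in at least 2 libraries of a table, and called higher or lower at an adjusted p below 0.05 with at least a 2-fold difference. The words rose and fell are kept for such calls. Ranges that do not overlap are given as description only, since groups of 2 libraries often separate by chance. The labels do not say which libraries came from separate animals, and p-values here reflect only how far these libraries lie apart, which may be technical. The title of a blood monocyte library reads pool, and a TIM4+ and a TIM4- Smad4 knockout Kupffer library share an identifier in their titles. In bulk samples fewer cells of a type and less RNA per cell cannot be told apart.

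The libraries were set against their labels first. Nr1h3 was at 42.6 ± 0.981 TPM in WT and 8.43 ± 0.543 TPM in KO BMDMs (SD, n = 2), but at 401 ± 11.3 TPM in control Kupffer cells and 407 ± 22.4 and 368 ± 38.6 TPM in the TIM4+ and TIM4- cells labelled knockout, so a TPM over the whole gene does not check the loss of single exons there. Smad4 was at 34.5 ± 1.64 TPM in control Kupffer cells (n = 2) and at 18.2 ± 4.04 (n = 3) and 17.3 ± 3.2 TPM (n = 2) in the knockout cells. Stab2 was at 91.6, 1304.8 and 1644 TPM on average in the low, intermediate and high sorts. The summed level of 10 Kupffer cell markers was between 2.93 and 3.46 TPM in blood monocytes and between 17520.1 and 18573.7 TPM in the PBS Kupffer cells. No pair of replicate libraries held identical values.

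Of the 32 genes, 19 passed the filter on low values in all 8 tables, and 27, 29, 26, 23, 28, 29, 24 and 27 were tested in the time course, Nr1h3, STAB2, Smad4 Kupffer, Smad4 BMDM, C57BL/6J BMDM, liver Notch and bone marrow monocyte sets. Gapdh, the glyceraldehyde-3-phosphate dehydrogenase usually among the most abundant transcripts of a cell, stayed between 0 and 2.73 TPM in every library and was never tested. Of its 50-base windows in the reference transcript, 82.5% were shared with transcripts of 222 other genes; whether this sets its level was not tested. The shares were 76.4% for Mif, 72.2% for Eno1, 68.0% for Pgk1, 62.4% for Bnip3, 41.5% for Pgam1, 34.4% for Pkm, 25.3% for Gpi1, 19.1% for Ldha and 17.1% for Pfkp, so the absolute levels of these genes are uncertain, while Hk2, Hk3, Slc16a3, Pdk1, Egln1, P4ha1, Adm and Vegfa shared none. Over 39 contrasts between groups, 96 differences of single members were called and 19 contrasts called no member. Ndrg1 was called most often, in 12 contrasts, followed by Adm in 8 and Slc16a3, Eno1 and Mif in 6 each. Gpi1, Egln1, Higd1a and Ero1l were tested and never called, and Ankrd37, tested in 2 sets, was not called either.

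**Figure D1:**
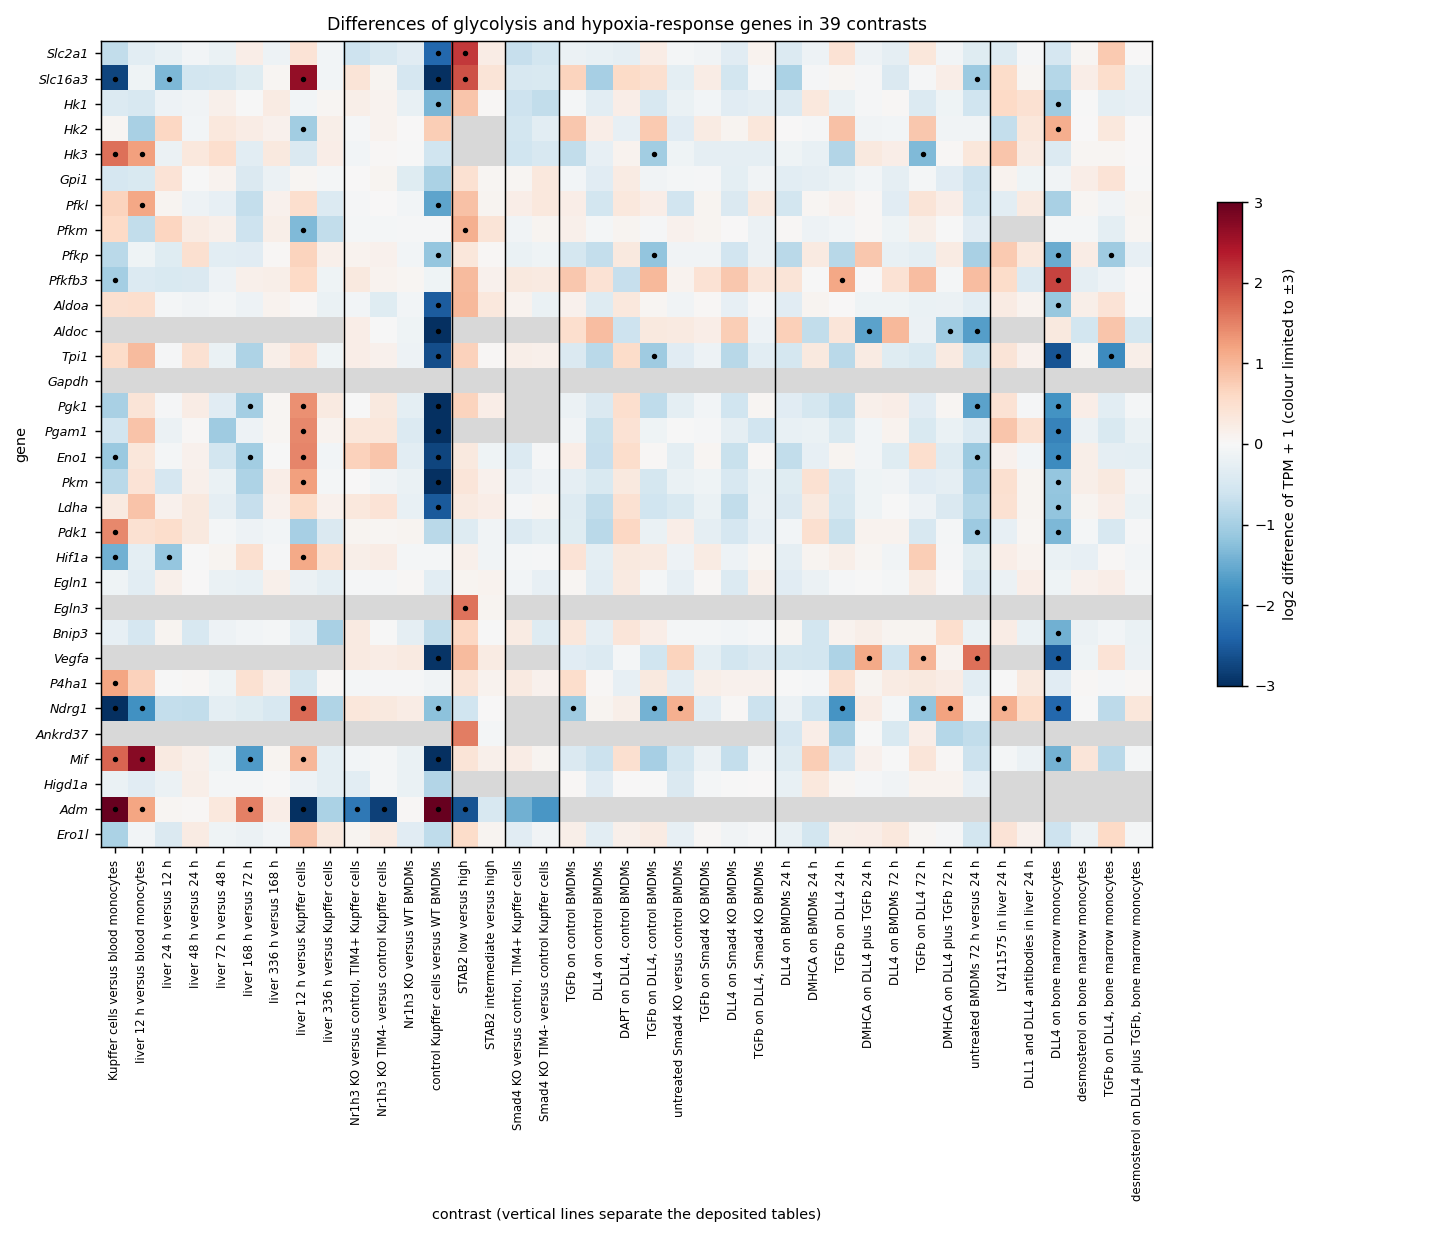
Log2 difference of TPM + 1 for each of the 32 genes (rows) in each of the 39 contrasts (columns); red is higher in the first-named group, blue lower, colours stop at 3 in either direction, black dots mark calls and grey cells were not tested. The columns with most dots are control Kupffer cells against WT BMDMs (17 calls) and DLL4 on bone marrow monocytes (16 calls), and most rows without a dot belong to Gpi1, Gapdh, Egln1, Ankrd37, Higd1a and Ero1l.

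The promoters of 5 members are shown because 4 of them, Ldha, Pgk1, Bnip3 and Vegfa, fell together in the bone marrow monocytes described further on, while Adm moved against the glycolysis genes in Kupffer cells. Each sequence is the 250 bases before the RefSeq gene start (GRCm38.p6), 5′ to 3′ on the gene's strand, with the capitals marking ACGTG or GCGTG on either strand (CACGT and CACGC on the strand printed), the core letters of the hypoxia response element. CACGTG reads as ACGTG on both strands and was counted as 2 matches. Ldha lies at chr7:46845554-46845803 on the plus strand, Pgk1 at chrX:106186850-106187099 plus, Bnip3 at chr7:138909507-138909756 minus, Vegfa at chr17:46032378-46032627 minus and Adm at chr7:110627407-110627656 plus.
Ldha: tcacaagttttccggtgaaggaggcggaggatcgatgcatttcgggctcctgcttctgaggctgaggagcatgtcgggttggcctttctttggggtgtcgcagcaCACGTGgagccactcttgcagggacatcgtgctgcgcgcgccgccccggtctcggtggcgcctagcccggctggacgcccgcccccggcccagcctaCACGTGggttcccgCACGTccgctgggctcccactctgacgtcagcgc
Pgk1: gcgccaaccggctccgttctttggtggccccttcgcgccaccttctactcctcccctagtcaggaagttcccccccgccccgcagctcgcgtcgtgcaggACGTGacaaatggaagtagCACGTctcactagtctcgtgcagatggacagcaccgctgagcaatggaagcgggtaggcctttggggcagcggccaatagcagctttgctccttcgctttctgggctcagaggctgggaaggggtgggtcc
Bnip3: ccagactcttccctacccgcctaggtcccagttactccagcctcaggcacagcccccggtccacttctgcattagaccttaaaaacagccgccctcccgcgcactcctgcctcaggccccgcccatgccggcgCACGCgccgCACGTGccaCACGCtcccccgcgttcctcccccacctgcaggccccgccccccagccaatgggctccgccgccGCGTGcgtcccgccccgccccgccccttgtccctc
Vegfa: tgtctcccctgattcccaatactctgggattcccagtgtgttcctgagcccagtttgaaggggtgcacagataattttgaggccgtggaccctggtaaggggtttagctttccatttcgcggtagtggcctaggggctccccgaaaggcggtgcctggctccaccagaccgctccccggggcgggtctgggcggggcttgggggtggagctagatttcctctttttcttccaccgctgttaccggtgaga
Adm: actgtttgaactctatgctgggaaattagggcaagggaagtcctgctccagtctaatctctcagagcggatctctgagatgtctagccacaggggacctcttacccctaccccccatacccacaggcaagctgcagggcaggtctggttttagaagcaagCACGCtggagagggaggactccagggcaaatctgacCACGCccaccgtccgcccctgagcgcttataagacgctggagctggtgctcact

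ACGTG was found 5 times in the Ldha window and 2 times in that of Pgk1, ACGTG 2 times and GCGTG 3 times in that of Bnip3, GCGTG 2 times in that of Adm, and neither in that of Vegfa. A promoter was listed for 31 of the 32 genes, Ero1l under its current symbol Ero1a and Ndrg1 not among them. Of these, 26 (83.9%) held ACGTG or GCGTG on either strand, against 38.6% of all 32851 RefSeq promoters of the same length. ACGTG, with or without GCGTG, was in 54.8% of the members' and 16.6% of all windows. GCGTG, with or without ACGTG, was in 58.1% and 28.2%. A match is a run of letters and not a bound site. The genes were listed for glycolysis and the response to low oxygen, so the comparison is not independent of that choice. Both strings contain CG, and the background was not matched for CG content. Members with several listed promoters entered with a single window, while the background held all promoters. The shares are therefore given as description only, and the source of their difference was not tested.

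By summed TPM, untreated cultured cells held more transcripts of the glycolysis members than Kupffer cells or blood monocytes. The sum is weighted to a few abundant members. In WT BMDMs Aldoa, Pkm and Ldha averaged 2114.6, 1699.4 and 801 TPM, and Gapdh 1.87 TPM. Summed over the 17 glycolysis members, TPM ran from 1291.2 to 1363 in PBS Kupffer cells, from 1165.4 to 1205.9 in Nr1h3 flox/flox Kupffer cells and from 1081.2 to 1123.3 in Smad4 flox/flox Kupffer cells. It ran from 1148.4 to 1515.6 in blood monocytes and from 649 to 733 in the STAB2-high sort. In untreated cultures it ran from 5964 to 6249.9 in WT BMDMs, 4677.9 to 4729.2 in C57BL/6J BMDMs at 24 h and 3906.2 to 4071.1 in bone marrow monocytes. The tables were normalised separately, so levels across them are set side by side without a test.

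Kupffer cells had a much lower glycolytic programme than WT BMDMs in the table that held both. Among the 29 members tested, 16 fell and 1 rose, where 15.9% of all genes were called lower and 20.6% higher; the median difference was -1.23 for the members and 0.05 for all genes. Slc16a3, the lactate exporter, was at 5.62 and 4.21 TPM in the Kupffer libraries and at 95.3 and 87.8 TPM in the BMDM libraries (log2 difference -3.98, SE 0.11, adjusted p = 4.1e-09), and Slc2a1 fell by 2.35 (SE 0.18). The groups did not overlap for either carrier.

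The enzymes after aldolase fell in every case tested. Pkm, the pyruvate kinase of most tissues, was at 152 and 162 TPM in Kupffer cells and at 1754.5 and 1644.4 TPM in BMDMs (-3.43, SE 0.06, adjusted p = 3.6e-10). Pgam1 (phosphoglycerate mutase) fell from 47.5 and 46.2 TPM to 2.36 and 2.33 TPM (-3.84, SE 0.1), Pgk1 by 3.08, Eno1 by 2.75 and Ldha by 2.51. Aldoa, the aldolase of glycolytic tissues, was at 374 and 371 TPM against 2152.6 and 2076.6 TPM (-2.5, SE 0.05), Tpi1 (triosephosphate isomerase) fell by 2.67, and Aldoc, a second aldolase, by 3.76.

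The entry to the pathway differed less. Hk1 fell by 1.37, Pfkl and Pfkp (phosphofructokinase isoforms) by 1.58 and 1.16 (Pfkp at -1.0 and not called without the first Kupffer library), while Hk3, the hexokinase of myeloid cells, differed by -0.59 (SE 0.08, adjusted p = 0.00016) without reaching 2-fold. Hk2 was the other way, at 51.7 and 52.3 TPM in Kupffer cells and 31.9 and 30.3 TPM in BMDMs (0.73, SE 0.2, adjusted p = 0.0084), also under 2-fold. Pfkm and Pfkfb3 did not pass the test.

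Among the hypoxia-response genes, Vegfa (the angiogenic growth factor) was at 0.462 and 0.324 TPM in Kupffer cells and at 10.3 and 9.05 TPM in BMDMs (-2.94, SE 0.12), Mif, a cytokine with tautomerase activity, fell by 3.1 and Ndrg1, a stress-response gene, by 1.23. Adm, which encodes the vasodilator peptide adrenomedullin, was the only member to rise: 11.8 and 17.5 TPM in Kupffer cells against 0.034 and 0 TPM in BMDMs (3.92, SE 0.19, adjusted p = 1.8e-07, a value that depends on the added 1 TPM since one BMDM library is listed at 0). Hif1a itself was at 36.1 and 36.3 TPM against 38 and 38 TPM. Adm, Aldoc, Pgk1, Pgam1 and Vegfa reached the filter in only 1 of the compared groups, so these had to differ. Markers of other cells moved with this contrast: all 11 hepatocyte markers tested were called higher in Kupffer cells (summed 263 to 899 TPM against 6.04 to 7.09 TPM), 8 of 10 sinusoidal markers higher (305 to 319 against 17.9 to 18.8 TPM) and 6 of 10 dividing-cell markers lower; their part in the result was not tested.

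**Figure D2:**
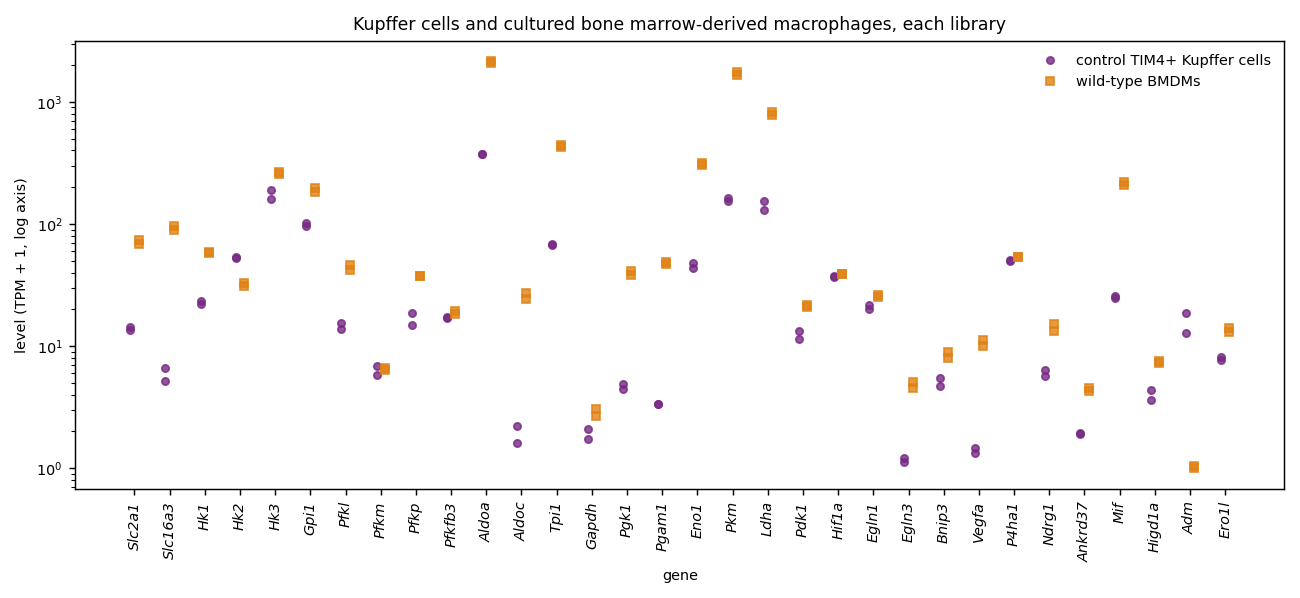
Level of each of the 32 genes as TPM + 1 on a log axis in the 2 control TIM4+ Kupffer libraries (circles) and the 2 WT BMDM libraries (squares). The squares lie above the circles for Slc2a1, Slc16a3 and for the enzymes from Aldoa to Ldha, the pairs nearly meet for Hif1a, P4ha1 and Pfkm, and only Adm, at 11.8 and 17.5 against 0.034 and 0 TPM, lies far above in Kupffer cells.

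Genes of neighbouring pathways are set beside the shares of all genes in this contrast, 20.6% called higher and 15.9% lower. Of 20 other glycolysis isoenzymes and regulators tested, 6 rose and 3 fell in Kupffer cells against BMDMs, among them the ADP-dependent glucokinase Adpgk (110 against 31.9 TPM) and the pyruvate dehydrogenase kinase Pdk2 (15.3 against 3.37 TPM) on the higher side, and Slc16a1, another lactate carrier, on the lower (1.07 against 9.38 TPM). Of 22 other hypoxia-response genes 8 rose and 7 fell, with the iron carrier gene Trf higher (1204.7 against 48.2 TPM) and the transcription factor Bhlhe41 lower (0.105 against 63.4 TPM). Of 13 HIF regulators 0 rose and 1 fell, and of 16 citric acid cycle genes 0 rose and 1 fell. In the pentose phosphate pathway 2 of 8 fell, Pgd and Taldo1.

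Between blood monocytes and Kupffer cells the members moved in both directions. Of 27 tested, 5 rose and 5 fell, where 19.2% of all genes were called higher and 16.0% lower, and the median difference was -0.24 for the members against -0.06 for all genes. Slc16a3 was at 51.7, 49, 50.3 and 50.1 TPM in the monocyte libraries and at 6.72, 6.83 and 6.34 TPM in the Kupffer libraries (-2.75, SE 0.17, adjusted p = 8.8e-11). Hk3 rose from between 35.4 and 54.9 TPM to between 125 and 158 TPM (1.66, SE 0.21), and the groups did not overlap for either gene. Eno1 (enolase) fell by 1.12 (SE 0.12; 54.5 against 120 TPM) and Pfkfb3, which makes the activator of phosphofructokinase, by 1.01 (SE 0.12; 14.9 against 31 TPM); the latter missed 2-fold with quantile normalisation (-0.9) with limma-voom on recovered reads (-0.94) and without monocyte replicate 1 or 3 or the first Kupffer library (-1.0, -0.94 and -0.95), and Eno1 with quantile normalisation (-0.94).

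Pdk1, the kinase that closes the way of pyruvate into mitochondria, was at 4.73, 5.02, 5.28 and 6.33 TPM in monocytes and at 11.5, 19 and 19.5 TPM in Kupffer cells (1.45, SE 0.16, adjusted p = 2.6e-07). Hif1a fell from between 59.3 and 84.2 TPM to between 24.9 and 27.2 TPM (-1.43, SE 0.12). Ndrg1 was at 90.8, 84.2, 60.4 and 80.3 TPM in monocytes and at 5.01, 6.48 and 6.65 TPM in Kupffer cells (-3.5, SE 0.26, adjusted p = 9.8e-10). P4ha1, a collagen prolyl hydroxylase subunit, rose by 1.19 (SE 0.16), Mif by 1.74 (SE 0.2), and Adm from a listed 0 in all 4 monocyte libraries to 13.6, 21.3 and 22.3 TPM (fitted 4.3, SE 0.23, which depends on the added 1 TPM). Only the Kupffer cells of this contrast reached the filter for Adm, so it had to differ and its test supports nothing. Egln1 did not pass, at 22.8 to 28.1 TPM and 19.8 to 24 TPM.

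Beside these, 6 of 22 other glycolysis isoenzymes rose and 6 fell, with Pfkfb4, a sister of Pfkfb3, falling by 2.31 (15.8 against 82.6 TPM) and Ldhb by 2.47. The shares of all genes called in this contrast were 19.2% higher and 16.0% lower. Of 6 gluconeogenesis genes 4 rose. Of 14 HIF regulators 2 rose and 4 fell: Epas1, which encodes HIF-2α, rose by 3.12 (20 against 1.38 TPM), Hif3a rose, and Siah2, Cited2, Vhl and Ep300 fell. Of 20 other hypoxia-response genes 9 rose and 3 fell, with the collagen lysyl hydroxylase Plod1 at 288 against 21.3 TPM and the chemokine receptor Cxcr4 at 14.2 against 211 TPM. All 11 hepatocyte markers rose, from a summed 1.76 to 5.73 TPM in monocytes to 398 to 5758.2 TPM in Kupffer cells, as did 10 of 10 sinusoidal markers, from 4.41 to 7.19 TPM to 505 to 580 TPM. Of 12 dividing-cell markers 10 rose, and of 10 dissociation-stress markers 2 rose and 6 fell. Their part in these results was not tested.

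In the time course most of the pathway stood higher in the first 72 h than later. The summed enzymes ran from 1639.9 to 1929.4 TPM at 12 h, 1362.4 to 1978.3 at 24 h, 1803.7 to 1814.1 at 48 h and 1578.7 to 1769.1 at 72 h, against 1124.4 to 1221.3 at 168 h and 1265.8 to 1292.3 at 336 h. At 12 h against monocytes 4 members rose and 1 fell (12.5% of all genes were called higher and 12.7% lower). This contrast shares the monocyte libraries with the previous one. Mif rose from between 5.85 and 7.46 TPM to 45.5 and 59.4 TPM (2.74, SE 0.23, adjusted p = 2.3e-08), Pfkl by 1.17 (SE 0.13), Hk3 by 1.23 (SE 0.24) and Adm from a listed 0 to 1.02 and 1.58 TPM (not called with quantile normalisation, 0.74). Adm reached the filter in neither of these groups and its difference depends on the added 1 TPM, so its test supports nothing. Ndrg1 fell to 29.4 and 15.7 TPM (-1.81, SE 0.29). Without the second 12 h library the difference of Hk3 was 0.72, and without the first 12 h library 8 members were called instead of 5. At an adjusted p below 0.05 of any size 12 members were higher and 7 lower (26.9% and 35.5% of all genes), among them Tpi1 (0.96) and Ldha (0.86) on the higher side and Hk2 (-0.98) on the lower. Of 10 dissociation-stress markers 7 were called lower at 12 h (180 to 181 against 701 to 2414.9 TPM), 11 of 11 hepatocyte markers higher and 6 of 8 monocyte markers lower; their part was not tested.

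From 12 to 24 h the members called were Slc16a3, which fell from 56.4 and 38 TPM to 23.3, 12.1 and 19.5 TPM (-1.34, SE 0.2), and Hif1a, which fell from 67.1 and 49.5 TPM to 28, 23.3 and 24 TPM (-1.17, SE 0.14). Over the same step 3.42% of all genes were called higher and 2.74% lower, and without the first 12 h library Hif1a was at -0.95 and 1 member was called. From 24 to 48 h, 48 to 72 h and 168 to 336 h limma called 0 of 27 members, with 5, 4 and 2 at an unadjusted p below 0.05 and 0 called by limma-voom on recovered reads in each. For all genes the shares called higher and lower were 3.51% and 0.747%, 0.237% and 0.185%, and 0.0264% and 0.0440% over those steps. Unadjusted limma p-values lay below 0.05 for 2904, 2080 and 1089 of all 11373 genes.

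From 72 to 168 h Mif, Eno1 and Pgk1 fell and Adm rose. Of 27 members 3 fell and 1 rose (5.79% of all genes were called lower and 2.37% higher), and 10 were lower and 2 higher at an adjusted p below 0.05 of any size (21.3% and 12.7% of all genes). Mif fell from 53.5 and 75.7 TPM to 15.7, 17.8 and 24.9 TPM (-1.69, SE 0.24, adjusted p = 4.8e-05). Eno1 was at 98.7 and 119 TPM and then at 51.3, 51 and 54.3 TPM (-1.04, SE 0.14), and Pgk1 fell by 1.01 (SE 0.2); Pkm (-0.93), Tpi1 (-0.92), Pfkl (-0.72) and Ldha (-0.7) were lower at under 2-fold. The groups did not overlap for Mif or Eno1. Adm rose from 2.1 and 2.04 TPM to 8.03, 8.82 and 6.71 TPM (1.52, SE 0.27). It reached the filter in no group before 168 h, so it had to differ here and its test supports nothing. Eno1 and Pgk1 missed 2-fold with quantile normalisation (-0.95 each). They also missed it without the second 72 h library (-0.91 and -0.72), where 2 members were called instead of 4. Pgk1 missed it without the second 168 h library too (-0.92). All 12 dividing-cell markers tested were called lower over the same step, from a summed 574 to 662 TPM to 68.6 to 117 TPM, as were 7 of 10 sinusoidal and 4 of 8 monocyte markers, and their part was not tested. Of 16 citric acid cycle genes none were called and 11 were lower at an adjusted p below 0.05.

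At the ends of the course, 12 h macrophages against Kupffer cells had 8 members higher and 3 lower, where 10.1% of all genes were called higher and 13.7% lower; this and the next contrast share the Kupffer libraries. Slc16a3 (2.63), Ndrg1 (1.69), Eno1 (1.46), Pgam1 (1.43), Pgk1 (1.36), Pkm (1.23), Hif1a (1.13) and Mif (1.0) were higher, and Adm (-3.11), Pfkm (-1.33) and Hk2 (-1.04) lower. Adm reached the filter in no group before 168 h, so it had to differ here and its test supports nothing. Pfkm at 12 h (at most 2.16 TPM) did not reach the filter. Nor did Pgam1 (1.32 to 4.16 TPM) and Pgk1 (2.97 to 4.2 TPM) in Kupffer cells. Only the higher of the compared groups reached it for these genes, so their calls here are description only. Mif was not called with quantile normalisation (0.97). It was also not called without replicate 2 at 12 h (0.81) or replicate 2 or 3 of the Kupffer cells (0.91 and 0.85). Hk2 was not called without any of these libraries (-0.79 to -0.93). Hif1a was not called without the first 12 h library (0.91). At 336 h limma called 0 of 27 members against Kupffer cells (9 at an unadjusted p below 0.05; limma-voom called 1), where 0.932% of all genes were called higher and 2.89% lower. There 3956 of all 11373 genes had an unadjusted limma p below 0.05. Adm stood at 9, 9.24 and 9.27 TPM at 336 h and at 13.6, 21.3 and 22.3 TPM in Kupffer cells (-0.95, SE 0.24, adjusted p = 0.011), and Pfkm, Ndrg1, Bnip3 and Pfkl were also lower at an adjusted p below 0.05 and under 2-fold.

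**Figure D3:**
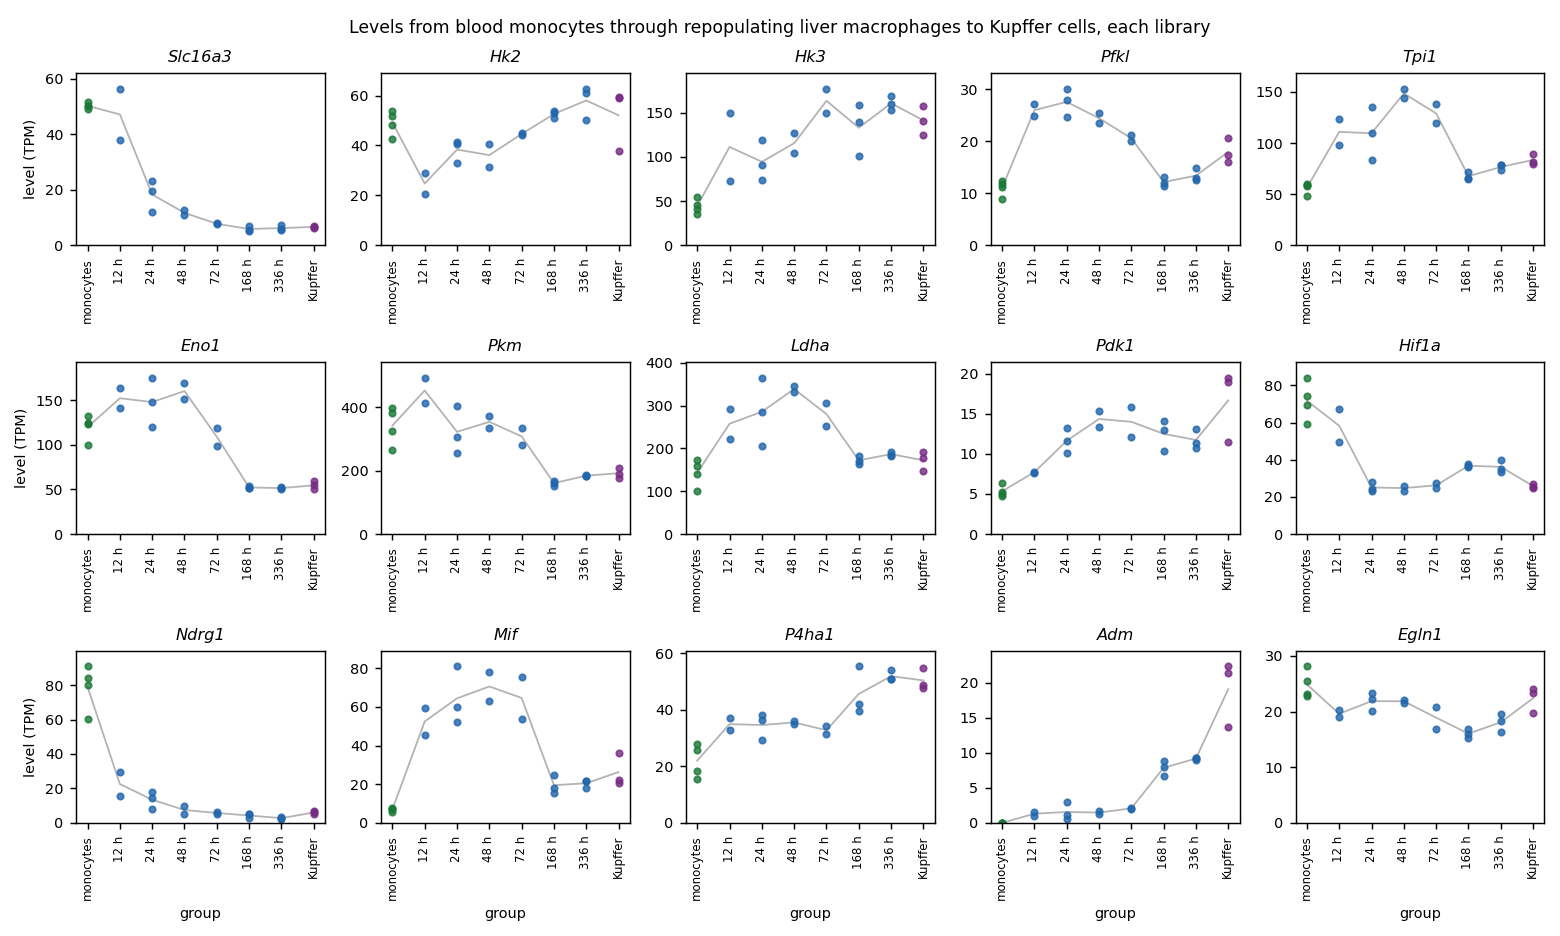
TPM of 15 members in each library, from blood monocytes (green) through repopulating liver macrophages at 12 to 336 h (blue) to PBS Kupffer cells (purple); grey lines join the group means and the groups are evenly spaced, not to the scale of time. Ndrg1 and Slc16a3 drop from the monocyte level within 24 h, Mif and Ldha stand high from 12 to 72 h and low from 168 h, and Adm climbs from a listed 0 to its highest values in Kupffer cells.

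In Kupffer cells labelled Nr1h3 knockout Adm was lower than in the controls, and no enzyme passed 2-fold. In TIM4+ cells labelled Nr1h3 knockout, Adm was at 2.85 and 2.1 TPM against 11.8 and 17.5 TPM in the controls (-2.15, SE 0.19, adjusted p = 0.00015), and in TIM4- cells at 1.29 and 1.14 TPM (-2.8, SE 0.19, adjusted p = 2.4e-05). It was the only one of 29 members called in either contrast, and the contrasts share their controls. For all genes 1.57% were called higher and 1.29% lower in TIM4+ cells, and 2.20% and 1.96% in TIM4- cells. Adm passed the filter only through the 2 control libraries, so it had to differ and its p-values support nothing. Without either of them it was not tested and no member was called. Eno1 was higher at under 2-fold in both, at 68.1 and 79.3 TPM (0.7, SE 0.13) and 69.9 and 92 TPM (0.83, SE 0.13) against 47.2 and 42.3 TPM. In KO against WT BMDMs limma called 0 of 29 members (9 at an unadjusted p below 0.05, 0 by limma-voom), with 0.0284% and 0.388% of all genes called higher and lower; Adm was below 0.06 TPM in every BMDM library there. The same contrast had 1251 of all 10558 genes at an unadjusted limma p below 0.05. Markers of sinusoidal endothelium, the sorted cells with the highest Adm level of the series, summed to 305 to 319 TPM in the controls and to 466 to 522 and 465 to 470 TPM in the TIM4+ and TIM4- knockout libraries; their part was not tested.

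In Kupffer cells labelled Smad4 knockout limma called 0 of 23 members in the TIM4+ and 0 in the TIM4- cells, with 7 and 3 at an unadjusted p below 0.05 and 0 and 1 called by limma-voom. For all genes 0.593% were called higher and 0.372% lower in TIM4+ cells, and 0.754% and 0.865% in TIM4- cells. Unadjusted limma p-values lay below 0.05 for 1357 and 1563 of all 9946 genes. Adm was at 17.5 and 19.8 TPM in the controls, at 5.66, 5.44 and 7.78 TPM in the TIM4+ knockout libraries and at 2.9 and 7.92 TPM in the TIM4- libraries. The ranges did not overlap, but the difference did not pass the test. Sinusoidal markers summed to 302 to 319 TPM in the controls and to 368 to 397 and 334 to 345 TPM in the TIM4+ and TIM4- knockout libraries, and dissociation-stress markers to 1071.8 to 2532.9 TPM against at most 821 and 672 TPM; their part was not tested.

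Between the cells sorted as STAB2 low and STAB2 high, Adm was lower in the low sort. Of 26 members tested 4 were higher and 1 lower, where 8.09% of all genes were called higher and 5.54% lower, and 23 of the 26 differences were above 0 (median 0.59, all genes 0.08). Slc2a1 was at 11.3 and 14.5 TPM in the low and 2.5 and 1.82 TPM in the high sort (2.13, SE 0.25, adjusted p = 0.0014), Slc16a3 at 9.65 and 6.22 against 1.47 and 1.22 TPM (1.9, SE 0.3), and the prolyl hydroxylase Egln3 at 7.83 and 5.46 against 1.09 and 1.79 TPM (1.64, SE 0.35). Pfkm, the muscle phosphofructokinase, was higher by 1.07 (SE 0.17). It was not called with quantile normalisation (0.96) or without the STAB2-low (0.94) or STAB2-high (0.99) library numbered 210. Without that STAB2-high library Egln3 was not called either (1.44, limma adjusted p = 0.073). These levels did not overlap between the sorts; Slc2a1, Slc16a3 and Egln3 passed the filter only through the STAB2-low libraries, so they had to differ and their tests support nothing.

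Adm went the other way, at 7.56 and 10.2 TPM in the low, 32.8 and 52 TPM in the intermediate and 45.1 and 74.8 TPM in the high sort (low against high -2.6, SE 0.3, adjusted p = 0.0014). Ndrg1 had its highest levels of the whole series in this set, at 195 and 187 TPM in the low and 272 and 308 TPM in the high sort. In the intermediate against the high sort limma called 0 of 26 members (1 at an unadjusted p below 0.05, 0 by limma-voom), with 0.00946% of all genes called higher and 0 lower. There 872 of all 10576 genes had an unadjusted limma p below 0.05. Without 1 or the other STAB2-low library 2 and 3 members were called against the high sort. The column names of this set give the sort and an identifier that recurs in every sort, and no date. Whether the sorts were processed together cannot be told from them. Sinusoidal markers summed to between 7622.9 and 8432 TPM in the low and 18440.4 and 19197.7 TPM in the high sort (7 of 10 called lower), dissociation-stress markers to 1351.9 to 1676.7 against at most 532 TPM (5 of 10 higher), dividing-cell markers to 54.2 to 62.8 against 165 to 173 TPM (8 of 10 lower) and monocyte markers to 179 to 274 against 6.97 to 23.2 TPM; their part was not tested. Other hypoxia-response genes were called higher in 4 of 18 cases (8.09% of all genes), with the vasoconstrictor gene Edn1 at 176 against 0.983 TPM and the collagen cross-linker Lox at 24.7 against 0.169 TPM.

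**Figure D4:**
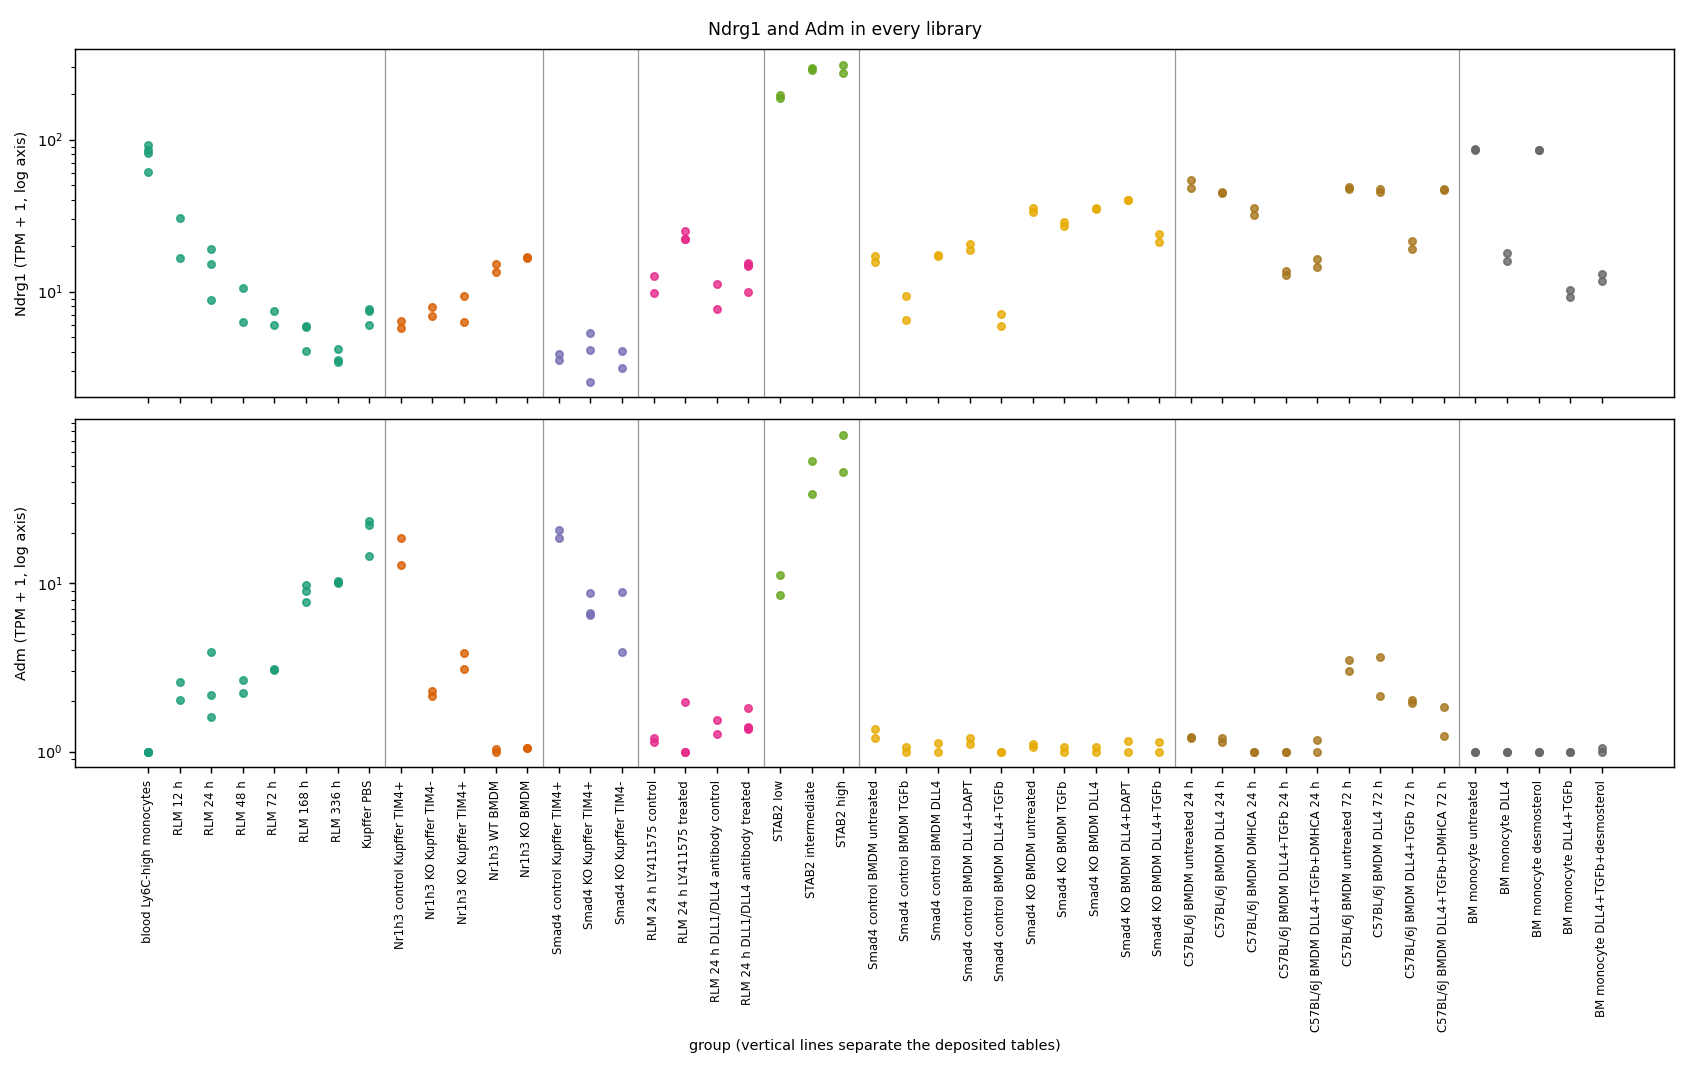
Ndrg1 (top) and Adm (bottom) as TPM + 1 on log axes in all 104 libraries; each point is a library, colours and grey lines separate the 8 tables, which were normalised separately. Ndrg1 goes from 60.4 to 90.8 TPM in blood monocytes to 5.01 to 6.65 TPM in PBS Kupffer cells and is highest in the STAB2 sorts, while Adm is highest in STAB2-high cells (45.1 and 74.8 TPM) and at most 2.65 TPM in cultured cells.

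In cultured bone marrow monocytes most members were lower with DLL4. Of 27 members 14 fell and 2 rose after 48 h, where 10.4% of all genes were called lower and 9.10% higher; the median difference was -1.06 for the members and -0.05 for all genes. The summed enzymes went from 3906.2 to 4071.1 TPM in untreated cells to 1869.5 to 1893.4 TPM. Hk2 was at 14.8 and 15.3 TPM untreated and at 33.9 and 32.1 TPM with DLL4 (1.08, SE 0.05, adjusted p = 7.1e-08), while Hk1 fell by 1.06 (SE 0.05). Pfkfb3 rose from 10.4 and 10.7 TPM to 45.9 and 46.1 TPM (2.03, SE 0.05, adjusted p = 3.7e-10), while Pfkp, which its product activates, fell from 35.2 and 37.8 TPM to 12.3 TPM in both libraries (-1.49, SE 0.06). None of these groups overlapped.

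The enzymes after the aldolase step fell together. Tpi1 was at 285 and 295 TPM untreated and at 46.9 and 47.2 TPM with DLL4 (-2.6, SE 0.05, adjusted p = 1.3e-10), Pgam1 at 33.4 and 34.2 against 8.25 and 7.02 TPM (-2.01, SE 0.1), and Eno1 at 204 and 213 against 57.3 and 53.8 TPM (-1.89, SE 0.05). Pgk1 fell by 1.79, Ldha by 1.19, Pkm by 1.17 and Aldoa by 1.13, and Pdk1 by 1.34. Aldoc was higher by 0.3, under 2-fold.

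Of the hypoxia-response genes, Ndrg1 fell from 86.5 and 84.4 TPM to 16.9 and 15 TPM (-2.35, SE 0.08, adjusted p = 3.6e-09), Vegfa from 5.92 and 5.8 TPM to 0.223 and 0.183 TPM (-2.51, SE 0.15), Bnip3, a mitophagy receptor, from 22.9 and 22.3 TPM to 7.89 and 7.64 TPM (-1.43, SE 0.1), and Mif by 1.41. Hif1a was at 43.9 and 44 TPM and then at 38.2 and 37.8 TPM (-0.21, SE 0.05, adjusted p = 0.0047). Vegfa passed the filter only through libraries without DLL4, so it had to differ here. Among other genes, Pdk3, a further pyruvate dehydrogenase kinase, rose by 3.43 (SE 0.05, from 13.8 TPM) and Vhl, whose product marks HIF-1α for destruction, from 14.1 to 61.2 TPM, while 2 of 22 other hypoxia-response genes rose and 5 fell (9.10% and 10.4% of all genes), with Ddit4, an inhibitor of growth signalling, up at 56.7 against 3.31 TPM. Dividing-cell markers summed to 929 to 946 TPM untreated and 376 to 413 TPM with DLL4 (7 of 12 called lower), and monocyte markers to 2106.8 to 2319.2 and 154 to 162 TPM; their part was not tested.

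**Figure D5:**
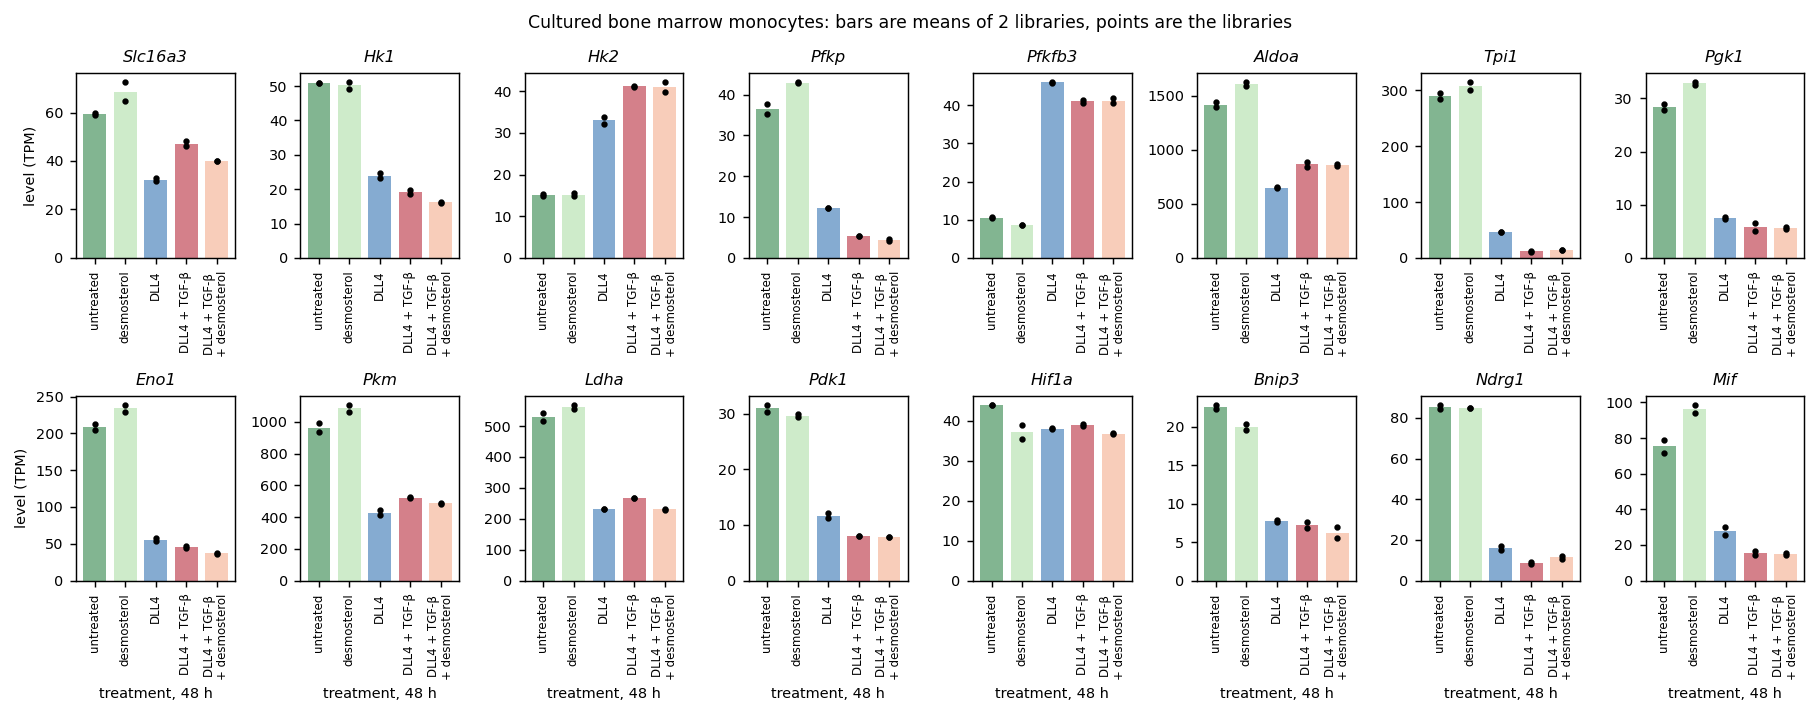
TPM of 16 members in cultured bone marrow monocytes after 48 h of 5 treatments; bars are means of 2 libraries and points are the libraries, each panel with its own axis from 0. All 3 bars with DLL4 are low for Tpi1, Pgk1, Eno1, Pkm, Ldha, Bnip3, Ndrg1 and Mif, high for Hk2 and Pfkfb3, and near the untreated level for Hif1a.

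TGF-β added to DLL4 in these monocytes called 2 of 27 members lower and none higher (6.43% of all genes were called lower and 2.38% higher), with 11 in each direction at an adjusted p below 0.05 of any size (16.4% and 35.1% of all genes higher and lower). Tpi1 went on to 12.6 and 11.4 TPM (-1.89, SE 0.05, adjusted p = 4.6e-09) and Pfkp to 5.26 and 5.48 TPM (-1.06, SE 0.06; -0.85 and not called with quantile normalisation), while Slc2a1 (0.79), Aldoc (0.83) and Slc16a3 (0.53) were higher at under 2-fold. For desmosterol limma called 0 of 27 members both alone and on DLL4 with TGF-β, with 12 and 9 at an unadjusted p below 0.05 and 0 by limma-voom; 0.127% and 0.117% of all genes were called higher and lower alone, and 0.127% and 0.0782% in the combination. Unadjusted limma p-values lay below 0.05 for 3129 and 2641 of all 10234 genes. Contrasts of this set share the untreated or the DLL4 libraries. Dividing-cell markers were at 68.9 to 73.8 TPM with DLL4 and TGF-β, 11 of 12 of them called lower than with DLL4, which was not tested as a source of the difference.

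In BMDMs most members were lower with DLL4 at under 2-fold. In Smad4 flox/flox BMDMs limma called 0 of 28 members after 24 h of DLL4 (23 at an unadjusted p below 0.05; limma-voom called 2), with 2.89% of all genes called higher and 1.17% lower. At an adjusted p below 0.05 of any size 20 members were lower and 2 higher, against 24.4% and 20.6% of all genes. Slc16a3 was at 43 and 46.4 TPM untreated and 22.6 and 21.4 TPM with DLL4 (-0.99, SE 0.18), Ldha at 579 and 609 against 360 and 353 TPM (-0.74, SE 0.14), and Aldoc at 11.2 and 10.8 against 22.1 and 21.7 TPM (0.93, SE 0.07). Adding DAPT, which blocks Notch cleavage, to DLL4 called 0 members (20 at an unadjusted p below 0.05, 0 by limma-voom; 0.341% and 1.75% of all genes called higher and lower), but 13 were higher and 3 lower at an adjusted p below 0.05 of any size (17.3% and 12.0% of all genes), among them Tpi1 (0.55), Pdk1 (0.61), Eno1 (0.53) and Aldoc (-0.63). Unadjusted limma p-values lay below 0.05 for 5389 of all 10267 genes with DLL4 and for 4249 with DAPT on DLL4. These contrasts share the DLL4 libraries. Of 12 dividing-cell markers, 12 were lower at an adjusted p below 0.05 with DLL4 (summed 942 to 1036.9 against 1505.8 to 1539.7 TPM), none of them at 2-fold, and 11 were higher with DAPT; their part was not tested.

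In C57BL/6J BMDMs DLL4 called 0 of 29 members at 24 h and 0 at 72 h (20 and 14 at an unadjusted p below 0.05; limma-voom called 0 and 1), where 2.22% and 0.532% of all genes were called higher and lower at 24 h and 1.31% and 0.422% at 72 h. Slc16a3 was at 67.1 and 65.5 TPM untreated and 33.8 and 33.4 TPM with DLL4 at 24 h (-0.96, SE 0.06, adjusted p = 1.1e-07), and at 31.3 and 29.6 against 21.8 and 23 TPM at 72 h. The difference between the 2 DLL4 effects was 0.53 (SE 0.09, adjusted p = 0.0015) for Slc16a3 and 0.58 (SE 0.08) for Pfkp. It was above 0 for 7 members at an adjusted p below 0.05 and below 0 for none, though none reached 2-fold (16 at an unadjusted p below 0.05, 0 by limma-voom; 0.614% and 1.05% of all genes called higher and lower, and 5.85% and 5.60% at any size). Unadjusted limma p-values lay below 0.05 for 4228 of all 10908 genes with DLL4 at 24 h, 2989 at 72 h and 2684 for the difference.

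Time in culture moved the pathway as well. In untreated C57BL/6J BMDMs at 72 h against 24 h 5 members fell and 1 rose, where 7.33% of all genes were called lower and 6.44% higher. The median was -0.54 for the members and -0.21 for all genes, which quantile normalisation moved to -0.02; the calls are relative to that shift. Slc16a3 fell to 31.3 and 29.6 TPM (-1.1, SE 0.06), Aldoc from 21.2 and 22.2 TPM to 6.5 and 5.95 TPM (-1.65, SE 0.22), Pgk1 from 37.7 and 36.1 TPM to 12.3 and 10.7 TPM (-1.6, SE 0.15), Eno1 by 1.12 and Pdk1 by 1.08. Vegfa rose from 12.4 and 13.1 TPM to 44 and 40.4 TPM (1.65, SE 0.1, adjusted p = 5.7e-09). With quantile normalisation Slc16a3, Eno1 and Pdk1 missed 2-fold (-0.85, -0.94 and -0.85) and the split was 2 higher and 3 lower. Other hypoxia-response genes rose in 8 of 24 cases with none lower. Dividing-cell markers were called lower in 11 cases, from a summed 1160.6 to 1206.5 TPM to 325 to 335 TPM, and their part was not tested.

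Ndrg1 fell with TGF-β in Smad4 flox/flox BMDMs and, on top of DLL4, in C57BL/6J BMDMs. In Smad4 flox/flox BMDMs Ndrg1 was at 16.3 and 14.7 TPM untreated and 5.51 and 8.42 TPM with TGF-β (-1.07, SE 0.13, adjusted p = 2.1e-05), the only one of 28 members called, with 1.56% of all genes called lower and 2.61% higher. At an adjusted p below 0.05 of any size 7 members were higher and 6 lower (15.4% and 20.6% of all genes). Without the first TGF-β library no member was called, and without the second 2 were. On top of DLL4 it was at 16.2 and 16.5 TPM and then 4.99 and 6.11 TPM (-1.41, SE 0.13), and Pfkp (-1.18), Tpi1 (-1.07) and Hk3 (-1.04) fell too, 4 members against 4.04% of all genes lower and none against 2.62% higher. At any size 8 were higher and 10 lower (15.0% and 30.9% of all genes). With quantile normalisation the split was 1 higher and 3 lower and Hk3 was not called, nor was it without the second library given both ligands (-0.99). In C57BL/6J BMDMs TGF-β on DLL4 took Ndrg1 from 44.4 and 43.9 TPM to 12.6 and 11.8 TPM at 24 h (-1.78, SE 0.08, adjusted p = 2.9e-09) and from 44.3 and 46.3 TPM to 18.2 and 20.5 TPM at 72 h (-1.19, SE 0.08). In the bone marrow monocytes the same addition gave -0.79 (SE 0.08), under 2-fold.

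The other calls of TGF-β on DLL4 in C57BL/6J BMDMs were Pfkfb3 at 24 h, from 10.8 and 10.7 TPM to 26.1 and 24.1 TPM (1.15, SE 0.07), and at 72 h Hk3, from 229 and 225 TPM to 91.4 and 89.6 TPM (-1.32, SE 0.06), and Vegfa, from 26.5 and 28.9 TPM to 55.7 and 58.1 TPM (1.01, SE 0.1; 0.93 with quantile normalisation, 0.95 without the first DLL4 and 0.98 without the second DLL4 with TGF-β library). At 24 h 2.31% of all genes were called higher and 1.49% lower, and at 72 h 4.02% and 1.62%. At an adjusted p below 0.05 of any size 5 members were higher and 12 lower at 24 h (13.3% and 18.1% of all genes), and 10 and 9 at 72 h (27.1% and 11.5%). Vegfa differed by -0.93 (SE 0.1) at 24 h, so its values point in opposite directions at the 2 times; that difference was not tested. Hk2 was higher at under 2-fold in both, by 0.87 and 0.82. Ldhb and Vhl, outside the list, rose with TGF-β on DLL4 in Smad4 flox/flox BMDMs, to 120 from 12.2 TPM and to 63.9 from 19.3 TPM. Dividing-cell markers were called lower in 12 of 12 cases in that contrast, summed 360 to 410 TPM, and their part was not tested.

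In the BMDMs labelled Smad4 knockout Ndrg1 was higher without treatment, and no member was called with TGF-β. Smad4 itself was at 10.2 ± 0.409 TPM in untreated knockout and 25.1 ± 0.234 TPM in untreated control libraries (SD, n = 2). Ndrg1 was at 32.3 and 34.6 TPM against 16.3 and 14.7 TPM in the controls (1.07, SE 0.13, adjusted p = 0.00012), the only one of 28 members called, where 0.750% of all genes were called higher and 0.380% lower; without the second control library it was 0.99 and not called. In the knockout cells limma called 0 members for TGF-β, 0 for DLL4 and 0 for TGF-β on DLL4 (6, 19 and 11 at an unadjusted p below 0.05, 0 by limma-voom in each), where the shares of all genes called higher and lower were 0.506% and 0.0390%, 2.21% and 1.18%, and 0.584% and 0.214%. The difference between the genotypes in the effect of TGF-β on DLL4 was called for Pfkp (1.01, SE 0.21, adjusted p = 0.0045; 1.39% of all genes were called higher and 0.838% lower). Pfkp went from 27.1 and 25.9 TPM to 11 and 11.3 TPM in the controls and from 27.7 and 25.9 TPM to 23.3 and 24.1 TPM in the knockouts. The call was lost without the first control DLL4 library or without the second knockout library given both ligands, and with quantile normalisation (0.95). For Ndrg1 the difference between genotypes was 0.77 (SE 0.19, adjusted p = 0.012), under 2-fold. The genotype differences in the effects of TGF-β alone and of DLL4 alone called 0 members each (7 and 1 at an unadjusted p below 0.05, 0 by limma-voom), with 0.526% and 0.672% of all genes called for the former and 0 for the latter in either direction. Unadjusted limma p-values lay below 0.05 for 1939 and 843 of all 10267 genes. For TGF-β, DLL4 and TGF-β on DLL4 in the knockout cells these were 1715, 5196 and 2401 genes.

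DMHCA moved single members. Alone at 24 h it called 0 of 29 members (19 at an unadjusted p below 0.05, 0 by limma-voom; 2.61% and 2.81% of all genes called higher and lower), with the summed enzymes at 5414.6 to 5474.5 TPM against 4677.9 to 4729.2 TPM untreated and Pkm at 1988.2 and 2107.3 against 1507.6 and 1480.8 TPM. Unadjusted limma p-values for DMHCA alone lay below 0.05 for 5957 of all 10908 genes. Added to DLL4 with TGF-β, it brought Aldoc down from 47.6 and 46.1 TPM to 14 and 15.2 TPM at 24 h (-1.61, SE 0.22) and from 13.1 and 10.1 TPM to 3.15 and 7.32 TPM at 72 h (-1.09, SE 0.22). Vegfa rose at 24 h from 4.35 and 3.75 TPM to 9.55 and 10.6 TPM (1.13, SE 0.1), and Ndrg1 at 72 h from 18.2 and 20.5 TPM to 45.5 and 46.6 TPM (1.21, SE 0.08, adjusted p = 2.4e-07), near the 44.3 and 46.3 TPM of DLL4 alone. For all genes 0.440% were called higher and 0.788% lower at 24 h, and 0.642% and 4.57% at 72 h. Without the first DMHCA library at 72 h Aldoc was at -0.59 and was not called, and without the first DLL4 with TGF-β library of that time 1 member was called.

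DMHCA and desmosterol, both sterols that activate LXR, were given to different cells for different times, so their values are set side by side only. Ndrg1 was at 34.7 and 30.9 TPM with DMHCA alone in BMDMs at 24 h (untreated 53.4 and 46.9 TPM) and at 85.1 and 84.7 TPM with desmosterol alone in bone marrow monocytes at 48 h (untreated 86.5 and 84.4 TPM). Aldoc was at 11.8 and 13.3 TPM with DMHCA alone (untreated 21.2 and 22.2 TPM) and at 12 and 12.6 TPM with desmosterol alone (untreated 18.2 and 18.7 TPM).

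In the repopulating liver macrophages more members were higher than lower with the inhibitor LY411575. With LY411575, 1 of 24 members was called: Ndrg1, at 24.1, 21.3 and 21.2 TPM against 8.81 and 11.6 TPM in its controls (1.06, SE 0.21, adjusted p = 0.0032), where 3.73% of all genes were called higher and 2.65% lower. At an adjusted p below 0.05 of any size 12 members were higher and 1 lower, against 14.5% and 14.3% of all genes (median 0.32, all genes -0.03). Hk3 was at 144, 148 and 138 TPM against 79.6 and 79.4 TPM (0.84, SE 0.09), Pfkp at 33.7, 34.2 and 35.1 against 19.9 and 19.1 TPM (0.78, SE 0.12), and Slc16a3 at 56, 50.8 and 49.7 against 33.2 and 37.4 TPM (0.55, SE 0.12). Hk2 was the lower member, at 34.6, 29.7 and 25.5 against 49.7 and 48.7 TPM (-0.71, SE 0.11). Without the first LY411575 control the difference of Ndrg1 was 0.88 and was not called. Monocyte markers were called higher in 5 of 8 cases (summed 5057.6 to 5409.2 against 2944.6 to 3033.5 TPM) and dividing-cell markers in 3 of 9 (150 to 169 against 91.1 to 94.6 TPM), Kupffer cell markers summed to 68.6 to 72.9 against 622 to 630 TPM, and their part was not tested.

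The antibodies to DLL1 and DLL4 called 0 of 24 members by limma (11 at an unadjusted p below 0.05, 0 by limma-voom), where 0.678% of all genes were called higher and 1.40% lower. There 2657 of all 9885 genes had an unadjusted limma p below 0.05. The median difference with the antibodies was 0.1 for the members and -0.01 for all genes. Hk2 was at 52.5, 46.1, 48.3 and 49.7 TPM with the antibodies and 36 and 40.5 TPM in their controls (0.35, SE 0.11, adjusted p = 0.053). The antibody effect minus the LY411575 effect was 1.07 for Hk2 (SE 0.16, adjusted p = 0.0013), 1 of 24 members, where 1.83% of all genes were called higher and 3.55% lower. It was lost without replicate 3 of LY411575 or without replicate 1 of the antibody controls, and with the replicate number as a block (0.96, limma adjusted p = 0.027), and 2 members were called without replicate 2 or 4 of the antibodies. The 2 treatments were given to animals marked as of different sex, which cannot be told apart from the treatments here.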

How the data were processed

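RNA was selected with oligo(dT) beads, fragmented and made into strand-specific libraries with dUTP, per the labels' protocols. Reads were processed with STAR and HOMER on mm10, per the submitters' processing notes; no versions are given there. The deposited tables hold TPM per gene, normalised by the authors, with column sums between 510684 and 574479. Whole reads were recovered from the TPM steps (at least 99.8% of values up to 20 reads within 0.1 of a whole read in every library) and used for depth and for 1 alternative. Log2(TPM + 1) was fitted over all groups of a table with limma 3.58.1 (R 4.3.3, trended prior), for genes at 4 TPM or more in at least 2 libraries, with Benjamini-Hochberg adjustment; tables were summarised with pandas 2.3.3. The scripts were tested on simulated data. All 32 members are accounted for, with called members named up to 8 in a direction and called genes of further lists up to 6 per list and contrast; members and lists were chosen with earlier results of these data known. The tables list another isoform in at least 1 table for 5740 genes, 10 of them members. Replicate pairs (69) were compared by chi-square per degree of freedom (1.53 to 50.24), and none agreed within sampling noise. Among culture pairs, Smad4 flox/flox BMDMs with TGF-β were at 26.24 and untreated C57BL/6J BMDMs at 24 h at 21.64. C57BL/6J BMDMs with DLL4, TGF-β and DMHCA at 72 h were at 13.18, and the other culture pairs at most at 4.4. Alternatives were a pseudocount of 0.25, no filter, quantile normalisation, limma-voom on recovered reads, a replicate block, and leaving out each library.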

Additional observations from a re-analysis of the deposited data

Results flagged for a closer look

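Single libraries stood away from the rest of their group in 3 cases, a distance that chance gives in about 1 of 20 groups. Many members were looked at, so some such cases arise by chance alone. In blood monocytes 1 library had Mif at 5.85 TPM, while the others lay from 7.26 to 7.46 TPM. Among the 4 libraries treated with antibodies to DLL1 and DLL4, the lowest had Pgam1 at 11 TPM (the others from 13.6 to 13.7 TPM), and another had Ndrg1 at 8.92 TPM (the others from 13.7 to 14.5 TPM).

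The effect of a treatment differed between groups for 2 members. For Pfkp the effect of TGF-β on DLL4 differed between Smad4 knockout and control BMDMs by 1.01 (SE 0.21, limma adjusted p = 0.0045), a call lost with quantile normalisation (0.95) and without any 1 of 4 single libraries (0.96 to 0.99). For Hk2 the effect of the DLL1 and DLL4 antibodies differed from that of LY411575 in liver macrophages by 1.07 (SE 0.16, limma adjusted p = 0.0013), a call lost with the replicate number as a block (0.96) and without either of 2 single libraries (0.96 and 0.98). The column names mark the antibody set as male and the LY411575 set as female, so sex and treatment cannot be told apart here.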

How the results depend on the processing

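No called difference changed direction under any alternative run. Of the 98 called differences of single members, 97 remained called with limma-voom on recovered reads, 98 without the filter, 98 with a pseudocount of 0.25 and 83 with quantile normalisation. Where a count of called members moved by over 1.5 times, the count follows with the main one in parentheses. With limma-voom it was 8 (5) at 12 h against monocytes, 1 (0) at 336 h against Kupffer cells, 1 (0) for Smad4 knockout TIM4- cells, 2 (0) for DLL4 in Smad4 flox/flox BMDMs, 4 (2) for TGF-β on DLL4 at 24 h, 1 (0) for DLL4 at 72 h and 2 (1) for antibodies minus LY411575. With the pseudocount of 0.25 it was 3 (0) at 336 h against Kupffer cells, 1 (0) for DLL4 in Smad4 flox/flox BMDMs, 1 (0) for DLL4 at 72 h and 2 (1) for antibodies minus LY411575. With quantile normalisation it was 1 (0) at 72 against 48 h, 2 (4) at 168 against 72 h, 0 (1) for the genotype difference of TGF-β on DLL4, 1 (2) for DMHCA on DLL4 with TGF-β at 72 h and 1 (2) for TGF-β on DLL4 in bone marrow monocytes. The cause was not tested.

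Leaving out 1 library gave 9 to 11 called members for Kupffer cells against monocytes, 4 to 8 at 12 h against monocytes, 1 to 3 at 24 against 12 h, 0 to 1 at 48 against 24 h, 2 to 6 at 168 against 72 h, 0 to 2 at 336 h against Kupffer cells, 0 to 1 and 0 to 2 for Nr1h3 knockout TIM4+ and TIM4- cells, 15 to 17 for Kupffer cells against BMDMs, 2 to 7 for STAB2 low against high, 0 to 1 for Smad4 knockout TIM4- cells, 0 to 2 for TGF-β and 0 to 1 for DLL4 in Smad4 flox/flox BMDMs, 0 to 1 for untreated Smad4 knockout BMDMs, 0 to 1 and 0 to 2 for the genotype differences of TGF-β and of TGF-β on DLL4, 0 to 1 for DLL4 and 1 to 3 for DMHCA at 72 h, 0 to 1 for LY411575, 0 to 2 for antibodies minus LY411575 and 16 to 17 for DLL4 on bone marrow monocytes. Counts outside 1.5 times the main one that the report does not name arose without the second 24 h library (1 at 48 against 24 h), without replicate 1 or 3 at 336 h (1) or of the Kupffer libraries (2 and 1 at 336 h against Kupffer cells), without the first Nr1h3 knockout TIM4- library (2), without the second Smad4 knockout TIM4- library (1), without the first untreated or DLL4 library in Smad4 flox/flox BMDMs (1 for DLL4), without the second control DLL4 library (2) or TGF-β library (1) for the genotype differences of TGF-β on DLL4 and of TGF-β, and without the first untreated library at 72 h (1 for DLL4). With groups of 2, a lone library is assumed to vary like the other groups.

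The labels do not say that a replicate number marks a shared animal or batch, and same-numbered libraries correlated between -0.261 and 0.339 in their deviations from the group means, so the numbers were not taken to pair the libraries. In the STAB2 set the titles repeat 2 identifiers across the 3 sorts, and its 6 pairs correlated between 0.057 and 0.137, 4 of them above 0.1. The labels do not say whether an identifier is an animal, and the block left the STAB2-low count at 5. With the number as a block, Hk2 in antibodies minus LY411575 was 0.96 and the count 0 (1), and no other count moved by over 1.5 times.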

Other observations

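Some members lay below the filter on low values in a set and so entered no test there, with levels that still differed between groups. Adm was at 2.5 and 2.01 TPM in untreated C57BL/6J BMDMs at 72 h and at 0.224 and 0.205 TPM at 24 h. With DLL4 and TGF-β at 72 h it was at 0.951 and 1.03 TPM. In the time course Vegfa was at 0.04, 0, 0 and 1.23 TPM in blood monocytes and at 3.32, 2.23 and 1.4 TPM in Kupffer cells. Egln3, the oxygen-sensing hydroxylase, was at 2.3 and 1.87 TPM in untreated bone marrow monocytes and at 0.128 and 0.203 TPM with DLL4, and Ankrd37 at 3.47 and 3.2 TPM and at 0.764 and 0.704 TPM.

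Smad4 knockout BMDMs given DLL4 with DAPT entered no contrast. Their Ndrg1 levels were 39.2 and 39 TPM, the highest of that set, and their summed glycolysis enzymes ran from 3982.9 to 4046.6 TPM, between those with DLL4 (3227.1 to 3259.6 TPM) and those untreated (4231.9 to 4376.5 TPM).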
